A study of Mus musculus with 18 samples.

Results

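The semaphorins, plexins, neuropilins, ephrins, Eph receptors, slits and netrins were taken as every probe set whose annotated symbol begins with Sema, Slit, Ntn or Nrp and a number, or with Plxn, Efna, Efnb, Epha or Ephb. The rule found 136 probe sets of 60 genes among the 45037 probe sets measured, and it used no expression value. Of these, 101 probe sets of 51 genes were bright enough to be tested. The other 35 had a mean log2 signal over all arrays between −0.02 and 3.06, and they held every probe set of Epha5, Epha6, Epha7, Epha8, Epha10, Sema3f, Plxna4, Plxna4os1 and Ntn3.

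The study hybridised 18 samples of mouse skin RNA, 1 per Affymetrix array, in 6 groups of 3. Wild-type mice and K14NICDER transgenic mice each gave separated epidermis, separated dermis and intact whole skin. The transgene joins the part of Notch that acts in the nucleus (NICD) to the ligand-binding part of the oestrogen receptor (ER), and the keratin 14 promoter drives it in basal keratinocytes. All mice, wild type included, were C57Bl6xCBA F1 females that were 7 weeks old when treatment began and received 4-hydroxytamoxifen, which activates the fusion protein, for 14 days. Skin was kept in RNAlater before RNA was taken from the separated layers or from whole skin. The labels do not say how many animals gave each sample or whether layers came from the same animals, so p-values measure only the spread between these samples, which may be technical.

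These gene families carry signals between cells, and many of their members are known from growing axons and blood vessels. Secreted class 3 semaphorins bind neuropilins, which pass the signal on through plexins. Membrane semaphorins bind plexins directly. Ephrins are bound to the cell surface and signal through Eph receptor kinases on the next cell, while slits act through Robo receptors and netrins through Dcc, neogenin and Unc5 receptors. In skin these cues are known for guiding nerves and vessels and for contacts between keratinocytes.

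Values are log2 of the MAS5 signal, and a difference of 1 is a doubling. Within a group the median standard deviation of a probe set was 0.202 and 0.203 in whole skin, against 0.357 to 0.593 in the separated layers, so whole skin was the more precise preparation. The array number limits every comparison. Probe sets of different genes bind with different strength, so levels are compared only within a probe set. A probe set was called when limma's Benjamini-Hochberg adjusted p over all 31526 tested probe sets was under 0.05, and differences are given ± the standard error of the fit with 3 arrays per group.

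Differentiated keratinocyte and vessel markers separated the layers, and basal keratinocyte markers did so less. The summed linear signal of 8 differentiated keratinocyte genes was 29635 to 48112 in wild-type epidermis and 12228 to 20126 in wild-type dermis. Blood endothelial genes summed to 83 to 146 and 518 to 778 in the same order, and 7 of the 8 were called higher in dermis. Fibroblast genes summed to 4197 to 9412 in wild-type epidermis, 9302 to 13153 in transgenic epidermis and 17002 to 22194 in wild-type dermis, so fibroblast RNA was present in the epidermal samples too. Basal keratinocyte genes summed to 15629 to 20017 in wild-type epidermis and 11668 to 14206 in wild-type dermis, with 1 of 7 called lower in dermis and a median difference of −0.42, so dermal samples held much keratinocyte RNA. In bulk tissue, fewer cells of a type and less RNA per cell cannot be told apart.

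The clearest difference between genotypes lay in Sema3d and Sema3c, which encode secreted class 3 semaphorins. Both were lower in transgenic than in wild-type epidermis and whole skin. They lie on the same mouse chromosome as Sema3a and Sema3e, and Sema3d is the annotated neighbour of Sema3a. The 250 bases before their RefSeq transcription starts are shown because these were the 2 guidance genes called lower in both preparations. They come from mouse build GRCm38.p6, plus strand, at chr5:12382916-12383165 for Sema3d and chr5:17574566-17574815 for Sema3c. Capitals mark a match to CACGCG, a site type bound by Hes repressors, which are classical Notch targets.
Sema3d: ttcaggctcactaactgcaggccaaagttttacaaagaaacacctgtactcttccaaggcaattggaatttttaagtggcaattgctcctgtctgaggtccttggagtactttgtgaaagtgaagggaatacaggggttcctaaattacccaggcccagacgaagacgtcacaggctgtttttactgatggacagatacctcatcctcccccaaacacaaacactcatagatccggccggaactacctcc
Sema3c: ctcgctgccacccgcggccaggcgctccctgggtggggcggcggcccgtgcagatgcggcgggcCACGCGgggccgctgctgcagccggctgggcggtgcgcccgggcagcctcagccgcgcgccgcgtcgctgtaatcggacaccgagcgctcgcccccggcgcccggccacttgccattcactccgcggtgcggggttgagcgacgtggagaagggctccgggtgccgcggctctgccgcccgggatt

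The Sema3c window was 78.4% G and C and the Sema3d window 46.8%, with a median of 52.4% over all windows of the table. In all, 3 motifs were searched on both strands from 250 bases before to 50 bases after each start, in 65 windows of 51 of the genes. GTGGGAA, a core bound by the Notch partner Rbpj, was in 4 of the 65 windows (6.15%) and in 6.38% of all 32851 windows of the table. The matching genes were Epha7, Ntn4 and Plxnb2, and neither Sema3c nor Sema3d had it. CACGCG was in 9 windows (13.8%, against 9.27% of all), among them that of Sema3c, where it begins at position −186 from the start. CACGTG was in 4 windows (6.15%, against 7.15%). The last 2 motifs were chosen after the expression values were seen, and a match describes the letters only.

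In epidermis, the Sema3d probe set 1453148_at read 7.86, 8.70 and 8.49 on the wild-type arrays and 4.58, 4.07 and 6.03 on the transgenic arrays. Every transgenic array lay below every wild-type array. The level fell by 3.46 ± 0.45 on the log2 scale (adjusted p = 0.00164, and 0.0054 in a fit of the 6 epidermal arrays alone). A further Sema3d probe set, 1429459_at, read 7.38, 8.68 and 8.81 in wild type and 5.54, 5.50 and 6.48 in transgenic epidermis. It too separated the genotypes and fell by 2.45 ± 0.48 (adjusted p = 0.0192, and 0.0186 in the smaller fit). This call was lost without wild-type epidermis 3, transgenic epidermis 1 or transgenic epidermis 2, with adjusted p up to 0.111.

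Sema3c, which is known in vessel and heart development, read 9.02, 9.22 and 9.55 in wild-type epidermis on 1429348_at, and 7.59, 7.47 and 7.59 in transgenic epidermis. The transgenic arrays were close together and all lower. This probe set fell by 1.71 ± 0.27 (adjusted p = 0.0053, and 0.00731 in the smaller fit). The other Sema3c probe set, 1420696_at, read 9.23, 8.47 and 8.21 against 7.66, 7.33 and 7.29. Its groups did not overlap either, but its difference of −1.21 ± 0.30 missed the threshold (adjusted p = 0.0609).

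Whole skin, hybridised on other arrays than epidermis, gave the same direction for all 4 probe sets. Whether the same mice gave both preparations is not stated, and in transgenic mice the 3 same-numbered epidermis and whole skin samples deviated together from their group means (r = 0.166 to 0.216 over probe sets). Sema3d 1453148_at read 8.02, 7.90 and 7.47 in wild type and 5.90, 5.62 and 6.42 in transgenic whole skin, a fall of 1.81 ± 0.22 (adjusted p = 0.00565, and 0.117 in 1 fit of all 18 arrays). On 1429459_at the arrays read 7.61, 7.72 and 7.34 against 5.66, 5.41 and 6.05, a fall of 1.85 ± 0.19 (adjusted p = 0.00235, and 0.157 in the 18-array fit). No transgenic array reached the wild-type range on either probe set.

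For Sema3c in whole skin, 1429348_at read 8.75, 8.71 and 8.81 in wild type and 7.48, 7.41 and 7.41 in the transgenic samples. Its fall of 1.33 ± 0.10 had the smallest adjusted p of the guidance probe sets in the genotype comparisons (0.000389). The second probe set read 8.27, 8.30 and 8.17 against 7.24, 6.83 and 7.11 and fell by 1.19 ± 0.13 (adjusted p = 0.00374, and 0.0931 in the 18-array fit). Both probe sets of both genes therefore separated the genotypes in whole skin.

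In dermis the same 4 probe sets had lower transgenic means, and none passed the threshold. Sema3d 1453148_at read 6.79, 6.16 and 6.09 in wild-type and 4.17, 3.95 and 4.01 in transgenic dermis, a difference of −2.30 ± 0.45 (adjusted p = 0.147). It was called in 5 of 17 alternatives, among them without the first transgenic dermis array (−2.36, adjusted p = 0.0488), and a fit of the 6 dermal arrays alone gave an adjusted p of 0.28. The second Sema3d probe set differed by −1.32 ± 0.48 (adjusted p = 0.855), and the Sema3c probe sets by −0.84 ± 0.27 and −1.01 ± 0.30 (adjusted p = 0.708 and 0.574). All 3 transgenic arrays lay below all 3 wild-type arrays on each of the 4, as for 6.04% of all tested probe sets; the share was 14.7% between the epidermal groups and 12.1% between the whole skin groups. A difference between the genotype effects of dermis and epidermis was not detected for them either, with interaction estimates from 0.20 ± 0.42 to 1.15 ± 0.64.

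**Figure D1:**
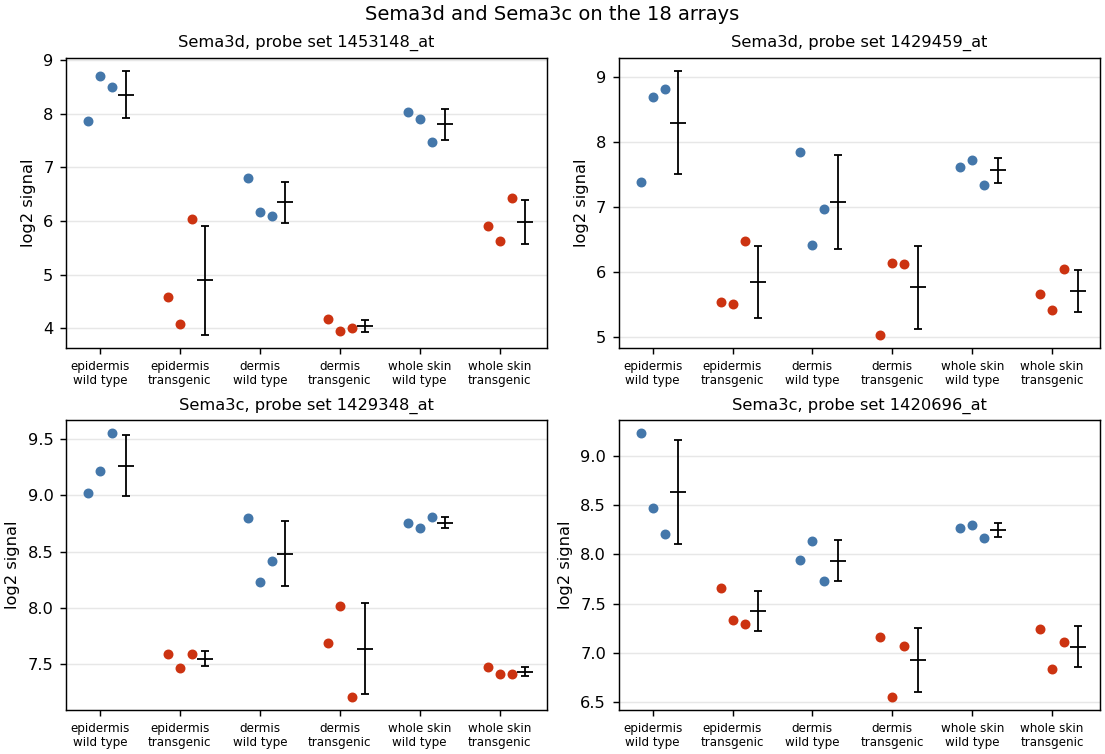
Log2 signal of 2 Sema3d and 2 Sema3c probe sets on each of the 18 arrays. Points are single arrays (blue wild type, red transgenic) and black marks give the group mean ± SD, n = 3. In epidermis, dermis and whole skin, all transgenic arrays lie below all wild-type arrays on each of the 4 probe sets.

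Markers of basal keratinocytes moved with this result in epidermis. The summed signal of 7 such genes was 15629 to 20017 on wild-type and 10803 to 11152 on transgenic epidermal arrays, and Krt15 was the 1 of them called lower. In dermis the sums were 11668 to 14206 in wild type and 9141 to 9892 in transgenic samples, again without overlap, with 0 of 7 genes called by limma and 3 lower at an unadjusted p under 0.05. In whole skin the sums overlapped (10464 to 12781 and 10692 to 11073), and Col17a1, a basal anchoring protein, was the 1 gene called (−0.70 ± 0.08, adjusted p = 0.00537). The part of these shifts in the Sema3 values was not tested. Other class 3 semaphorins were not called in epidermis. Sema3a 1449865_at differed by 0.63 ± 0.45, Sema3e 1427673_a_at by −0.25 ± 0.31 and Sema3g 1435361_at by 0.65 ± 0.55, with overlapping groups.

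Few of the guidance probe sets were called between genotypes. In epidermis 4 of 101 were called (3.96%), 1 higher and 3 lower, where 1.44% of all 31526 probe sets were called (0.828% higher and 0.612% lower). In whole skin 7 were called (6.93%), 1 higher and 6 lower, against a background of 1.56% (0.91% higher and 0.653% lower). In dermis 0 were called, against 0.0381% of all probe sets. At an unadjusted limma p under 0.05, 1 guidance probe set was higher and 8 were lower in transgenic dermis, 8.91% of them beside 5.53% of all. For epidermis, dermis and whole skin in turn, the median guidance difference was −0.03, −0.11 and −0.03, beside −0.20, −0.09 and −0.02 for all tested probe sets. The 3 probe sets lower in epidermis, all of Sema3d or Sema3c, were also 3 of the 6 lower in whole skin. Over all tested probe sets, the shared lower calls were 21.2% of the epidermal and 19.9% of the whole skin ones. The single higher probe sets were different ones, where 36.4% and 33.1% of higher calls were shared over all. The difference in these shares was not tested. Across the 101 probe sets, the genotype differences in epidermis and whole skin correlated at r = 0.37, and at 0.36 over all tested probe sets; probe sets are not independent replicates.

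**Figure D2:**
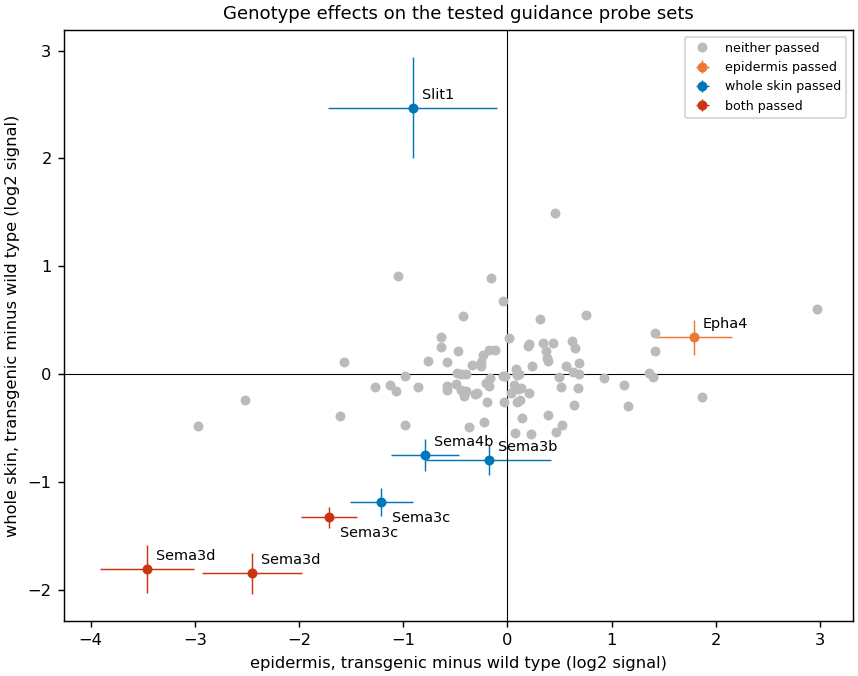
Transgenic minus wild-type log2 signal of the 101 tested guidance probe sets in epidermis (horizontal) and whole skin (vertical), with standard errors for called probe sets. Both Sema3d probe sets and 1 of Sema3c passed in both preparations, Epha4 in epidermis, and Sema3b, Sema4b, Slit1 and the other Sema3c probe set in whole skin.

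Epha4, a receptor kinase that binds both A and B ephrins, was the gene called higher in transgenic epidermis. Its probe set 1439757_s_at read 5.52, 5.98 and 4.96 in wild type and 7.61, 7.11 and 7.10 in transgenic epidermis. All transgenic arrays were above the wild-type range, a rise of 1.79 ± 0.37 (adjusted p = 0.0269, and 0.0318 in the smaller fit). The call was lost in 6 of 17 alternatives, among them the omission of either of 2 wild-type or any transgenic epidermal array, with adjusted p up to 0.147. The other 4 tested Epha4 probe sets had positive differences of 0.31 to 2.97 that missed the threshold. Dermis and whole skin gave −0.04 ± 0.37 and 0.34 ± 0.16 on 1439757_s_at, neither called.

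Whole skin added 3 genes, each on 1 of 2 probe sets. Sema3b, a class 3 semaphorin, read 6.83, 6.73 and 6.54 in wild type and 5.83, 5.94 and 5.95 in transgenic whole skin on 1448415_a_at. It fell by 0.80 ± 0.14 (adjusted p = 0.0286), while 1431795_a_at differed by −0.08 ± 0.23. Sema4b, a membrane semaphorin, fell by 0.75 ± 0.15 on 1427586_at (adjusted p = 0.0466) and differed by −0.18 ± 0.13 on 1455678_at. Its call was lost in 11 of 14 alternatives, among them the omission of any 1 whole skin array, and that of Sema3b in 7 of 15.

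Slit1, a Robo ligand, was the gene called higher in transgenic whole skin, on a dim probe set. Its 1425277_at read 1.98, 2.21 and 0.77 in wild type and 4.02, 4.04 and 4.30 in the transgenic samples, a rise of 2.47 ± 0.47 (adjusted p = 0.0395). With 16 added on the linear scale before the logarithm the difference was 0.79, and the call was lost in 8 of 14 alternatives. On 1440056_at it was 0.91 ± 0.38 (adjusted p = 0.29). The same 1425277_at differed by −0.91 ± 0.81 in epidermis, with overlapping groups.

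Receptors of the class 3 semaphorins were not called by genotype. The probe sets of Nrp1 disagreed in epidermis. On 1448944_at the arrays read 1.60, 3.68 and 3.83 in wild type and 5.52, 4.48 and 4.72 in transgenic samples. This difference of 1.87 ± 0.53 missed the threshold (adjusted p = 0.102), and 1418084_at differed by 0.69 ± 0.39. The 18-array fit, which takes in whole skin with its smaller spread, called 1448944_at. Over all probe sets that fit called 871 higher and 940 lower in epidermis, in place of 261 and 193. The brightest, Nrp1 1448943_at, differed by −0.34 ± 0.31 between the epidermal groups, 0.71 ± 0.31 between the dermal groups and 0.08 ± 0.09 for whole skin. On Nrp2 1426528_at the same comparisons gave 0.09 ± 0.27, 0.21 ± 0.27 and −0.01 ± 0.11. Among the 19 tested genes named whatever their result, 18 were not called in epidermis, with differences from −1.61 for Slit2 to 1.42 for Sema4d. In dermis 0 of the 19 were called, and they ran from −0.84 for Sema3a to 0.71 for Nrp1. Whole skin had 18 not called, from −0.55 for Ntn1 to 1.49 for Epha2, and 16 of these were under 0.5 in size.

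Among 41 tested genes of linked pathways (receptors, co-receptors and intracellular partners listed from general knowledge), 2 were higher and 1 lower in transgenic epidermis. This is 7.32% of them, beside 1.44% of all probe sets. The units differ, since each partner gene was read from its brightest probe set. A fit with 1 probe set per gene called 214 of 13739 genes higher and 150 lower in epidermis, a larger share. Dpysl3, a cytoskeletal mediator of semaphorin signals, rose by 2.10 ± 0.31 (adjusted p = 0.00369), and the VEGF receptor Flt1 by 2.18 ± 0.42 (adjusted p = 0.0177). Flrt1, of a family that binds the Unc5 netrin receptors, fell by 1.60 ± 0.31 (adjusted p = 0.0177). In whole skin Flt1 rose by 1.03 ± 0.18 (adjusted p = 0.0291) and Rgmb, a neogenin ligand, fell by 0.77 ± 0.12 (adjusted p = 0.0171). These 2 genes were 4.88% of the 41, beside 1.56% of all probe sets. With 1 probe set per gene, 235 of 13739 genes were called higher and 149 lower in whole skin. In dermis 0 of the 41 were called, beside 0.0381% of all. The epidermal partner calls rest on the 12-array fit alone.

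The layers differed far more than the genotypes. In wild-type skin 29 of 101 guidance probe sets were called between dermis and epidermis (28.7%), 25 higher and 4 lower in dermis, where 15.7% of all probe sets were called, 8.57% higher and 7.12% lower. In transgenic skin 38 were called (37.6%), 26 higher and 12 lower, where 18.8% of all were, 9.19% higher and 9.6% lower. Fits of the 6 compared arrays alone called 34 and 31. Over all probe sets these fits called 2906 higher and 2983 lower in wild type, and 2159 and 1924 in transgenic skin. The median guidance difference, dermis minus epidermis, was 0.24 and 0.12, and that of all tested probe sets −0.16 and −0.05. Of the 15 genes with a higher call in wild type, 12 were among the 15 with one in transgenic skin (80% of each). The compared arrays differ, but both comparisons took their standard errors from the joint fit of the 12 layer arrays. The lists of calls are therefore not independent. By probe sets the shared higher calls were 76% of the wild-type and 73.1% of the transgenic ones, beside 60.1% and 56.1% over all tested probe sets, and the difference in these shares was not tested. The 12 shared genes were Nrp1, Nrp2, Ntn1, Ntn4, Sema3a, Sema3b, Sema3e, Sema3g, Sema4f, Sema5a, Sema6a and Slit2. Across the 101 probe sets the layer differences of the genotypes correlated at r = 0.78, and over all tested probe sets at 0.68.

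**Figure D3:**
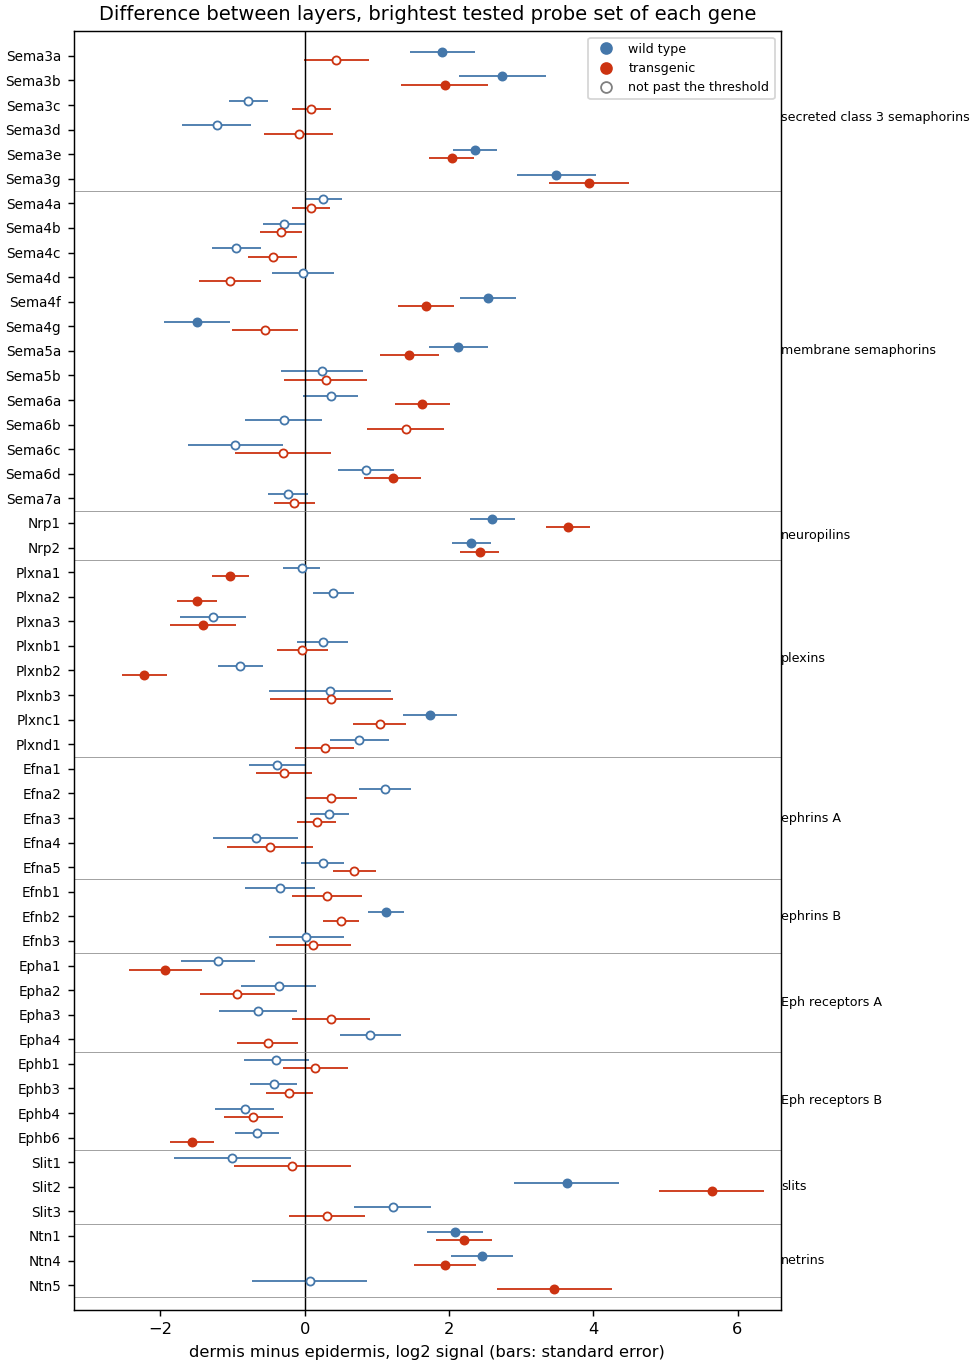
Dermis minus epidermis in log2 signal for the brightest tested probe set of each of 51 guidance genes, in wild-type (blue) and transgenic (red) skin, grouped by role. Bars are standard errors, and filled points passed an adjusted p of 0.05. Neuropilins lie to the right of 0 in both genotypes, while Plxnb2, Plxna1 and Plxna2 pass to the left in transgenic skin.

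Neuropilins, the binding receptors of class 3 semaphorins and co-receptors of VEGF, were the most regular group. Of their 8 probe sets, which belong to 2 genes, 6 were called higher in dermis in wild type and 7 in transgenic skin. These are 75% and 87.5%, beside 8.57% and 9.19% of all probe sets called higher. Nrp1 1448943_at read 5.54, 5.87 and 6.10 in wild-type epidermis and 8.23, 8.29 and 8.79 in wild-type dermis. Transgenic arrays read 5.85, 5.74 and 4.89 in epidermis and 9.0, 9.08 and 9.36 in dermis. The layers did not overlap in either genotype, and dermis was higher by 2.60 ± 0.31 (adjusted p = 0.000174) and 3.65 ± 0.31 (adjusted p = 1.61e-05).

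Nrp2, found in lymphatic and venous vessels and in neurons, read 6.37, 6.74 and 6.56 on 1426528_at in wild-type epidermis and 8.68, 9.21 and 8.70 in dermis. In transgenic skin the readings were 6.44, 6.93 and 6.57, and 9.03, 9.41 and 8.79. The layers were again apart, by 2.31 ± 0.27 (adjusted p = 0.000152) and 2.43 ± 0.27 (adjusted p = 5.19e-05). Whole skin lay near the dermal readings, between 8.33 and 8.71 on its 6 arrays.

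Class 3 semaphorins were split. In wild type 9 of 14 probe sets were called higher in dermis and 1 lower (71.4% called, beside 15.7% of all probe sets). In transgenic skin 7 were higher and 0 lower (50%, beside 18.8%). Sema3e, the ligand of plexin D1, read 5.68, 5.45 and 5.49 on 1427673_a_at in wild-type epidermis and 7.41, 8.31 and 7.97 in dermis, higher by 2.36 ± 0.31 (adjusted p = 0.000319). In transgenic skin it was higher in dermis by 2.04 ± 0.31 (adjusted p = 0.0005). Sema3g, known from vessels, read 3.91, 3.88 and 3.57 in wild-type epidermis and 7.04, 7.31 and 7.47 in dermis, higher by 3.49 ± 0.55 (adjusted p = 0.00102). Its transgenic epidermis held 1 array at 6.17 beside 3.32 and 3.83, and dermis was higher by 3.94 ± 0.55 (adjusted p = 0.00028).

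Sema3b was higher in wild-type dermis on both probe sets, by 2.74 ± 0.60 and 2.31 ± 0.44 (adjusted p = 0.00747 and 0.00349). Sema3a, a repellent of sensory axons, was higher there on all 3, by 1.31 ± 0.41 to 2.18 ± 0.69. The dimmest of these, 1420417_at (adjusted p = 0.0465), lost its call in 11 of 17 alternatives, 1420416_at in 9 of 18, and 1449865_at lost its own without wild-type dermis 2 or epidermis 1. In transgenic skin 1420416_at alone of the 3 was called (1.70 ± 0.41, adjusted p = 0.00981, and 0.0503 without transgenic epidermis 3). Sema3d ran the other way in wild type, lower in dermis by 2.0 ± 0.45 on 1453148_at (adjusted p = 0.00896), while in transgenic skin the layers differed by −0.85 ± 0.45 (adjusted p = 0.213). That change between genotypes, 1.15 ± 0.64, missed the threshold (adjusted p = 0.668).

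Slits and netrins are secreted ligands too. In wild type 1 of 5 slit and 2 of 4 netrin probe sets were called higher in dermis and 0 lower, beside 8.57% of all probe sets called higher. In transgenic skin 3 and 3 were called higher, beside 9.19% of all. The 3 slit calls were Slit2 1424659_at, Slit2 1458140_at and Slit1 1440056_at. The call of Slit2 1458140_at was lost in 9 of 17 alternatives and that of Slit1 in 5 of 17. Slit2 1424659_at read 2.75, 5.17 and 3.82 in wild-type epidermis and 7.32, 7.19 and 8.14 in dermis. In transgenic skin epidermis read 3.96, 0.52 and 2.44 and dermis 8.38, 7.60 and 7.88. The differences were 3.63 ± 0.73 (adjusted p = 0.0049) and 5.64 ± 0.73 (adjusted p = 0.000169); the epidermal readings are dim and widely spread, so the size is imprecise.

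Ntn1, the netrin known for axon attraction and repulsion, read 5.34, 4.62 and 5.34 in wild-type epidermis and 7.00, 7.39 and 7.15 in dermis. Dermis was higher by 2.08 ± 0.39 (adjusted p = 0.00311), and in transgenic skin by 2.21 ± 0.39 (adjusted p = 0.00148). Ntn4, a netrin that binds basement membrane laminins, was higher in dermis by 2.46 ± 0.43 and 1.95 ± 0.43 on 1439794_at (adjusted p = 0.00199 and 0.00628). Ntn5 was called in transgenic skin alone, where epidermis read 0.29, 1.98 and 1.30 and dermis 4.58, 5.84 and 3.54, all dim, a difference of 3.46 ± 0.80 (adjusted p = 0.00778). In wild type it differed by 0.07 ± 0.80, and the change between genotypes, 3.40 ± 1.13, missed the threshold (adjusted p = 0.636).

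**Figure D4:**
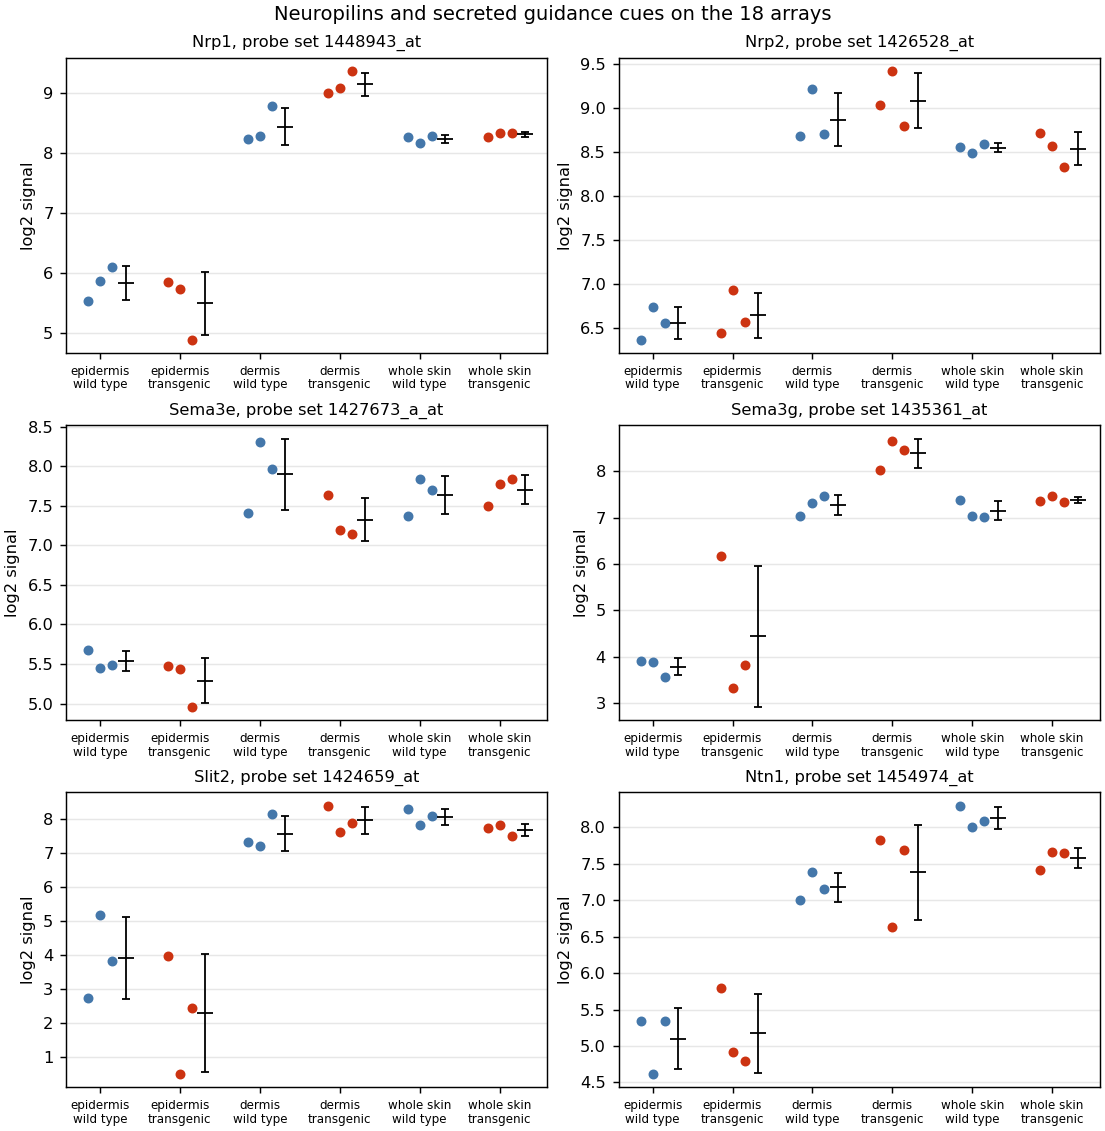
Log2 signal of Nrp1, Nrp2, Sema3e, Sema3g, Slit2 and Ntn1 on each of the 18 arrays (blue wild type, red transgenic), with group mean ± SD in black, n = 3. In both genotypes each dermal array lies above all epidermal arrays on these probe sets, and so does each whole skin array.

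Membrane semaphorins were mixed. Of 24 probe sets, 4 were called higher and 1 lower in wild-type dermis (20.8%, beside 15.7% of all probe sets). In transgenic dermis 6 were higher and 0 lower (25%, beside 18.8%). Sema4f was higher in dermis by 2.54 ± 0.39 and 1.68 ± 0.39 on 1439768_x_at (adjusted p = 0.000893 and 0.00886). Sema5a, which binds plexin B3, was higher by 2.13 ± 0.41 and 1.45 ± 0.41 on 1434776_at (adjusted p = 0.0035 and 0.023), while its other 2 probe sets differed by −0.39 to 0.52. The transgenic call was lost without dermis 2 or epidermis 2, and after quantile normalization. Sema6a was higher on 1436458_at by 2.79 ± 0.64 and 2.18 ± 0.64 (adjusted p = 0.00963 and 0.0276). Single arrays mattered for this probe set, whose call was lost without wild-type dermis 3 and, in transgenic skin, without dermis 3, epidermis 1 or epidermis 3. A further Sema6a probe set, 1425903_at, was not called in wild type. It was called higher in transgenic dermis and kept that call in all 19 alternatives (adjusted p up to 0.0381). Sema4g was lower in wild-type dermis by 1.49 ± 0.46 (adjusted p = 0.0414), a call lost in 6 of 19 alternatives, among them without wild-type dermis 1 or 2 or epidermis 1. Sema4d, a ligand of plexin B1, and Sema7a, which binds integrins, were called in neither genotype.

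Plexins transmit the semaphorin signal. Of 16 plexin probe sets, 2 were called in wild type, both higher in dermis (Plxna2 and Plxnc1, 1 each). This is 12.5%, beside 15.7% of all probe sets called. In transgenic skin 5 were lower and 0 higher (31.2%, beside 18.8%). Plxnb2, a receptor of class 4 semaphorins, read 6.98, 7.39 and 7.14 in wild-type and 7.77, 7.88 and 7.72 in transgenic epidermis. Dermis read 6.50, 6.43 and 5.90 in wild type and 6.18, 5.22 and 5.30 in transgenic skin. It was lower in transgenic dermis than epidermis by 2.22 ± 0.31 (adjusted p = 0.000296), and by 0.89 ± 0.31 in wild type, which missed the threshold (adjusted p = 0.0674).

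Plxna2, a receptor that pairs with neuropilins, gave the smallest p for a layer-dependent genotype effect. Probe set 1429772_at read 7.67, 7.30 and 7.63 in wild-type and 7.70, 8.51 and 7.93 in transgenic epidermis. In dermis it read 8.17, 8.07 and 7.57 in wild type and 6.54, 6.39 and 6.76 in transgenic skin. The groups were apart in both layers, with transgenic arrays above in epidermis and below in dermis. Neither genotype difference passed (0.52 ± 0.28 and −1.37 ± 0.28, adjusted p = 0.379 and 0.175). The interaction was −1.89 ± 0.40 (adjusted p = 0.271), with −2.04 ± 0.48, −1.64 ± 0.46 and −0.64 ± 0.46 on the other 3 probe sets. The fit of all 18 arrays called this interaction and the fall in dermis. That fit takes in whole skin, whose spread was smaller, and uses the same layer arrays, so it is not a separate check. For the interaction it called 19 of all probe sets higher and 26 lower.

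For the interaction as a whole, 0 of 101 guidance probe sets were called, as were 0 of all 31526 (0%). At an unadjusted limma p under 0.05, 6 of the 101 were higher and 9 lower. Over all 31526 probe sets 1098 were higher and 1235 lower at that limit, 7.4% of them. Plexins held 5 of the 9, several of these from Plxna2, and probe sets of 1 gene are not independent. Plxna1 and Plxna3 were called lower in transgenic dermis than epidermis by 1.03 ± 0.26 and 1.41 ± 0.46 (adjusted p = 0.0122 and 0.0457), and the second call was lost in 11 of 19 alternatives. Plxnd1, the Sema3e receptor of vessels, was not called between layers (0.76 ± 0.41 in wild type, 0.28 ± 0.41 in transgenic skin).

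**Figure D5:**
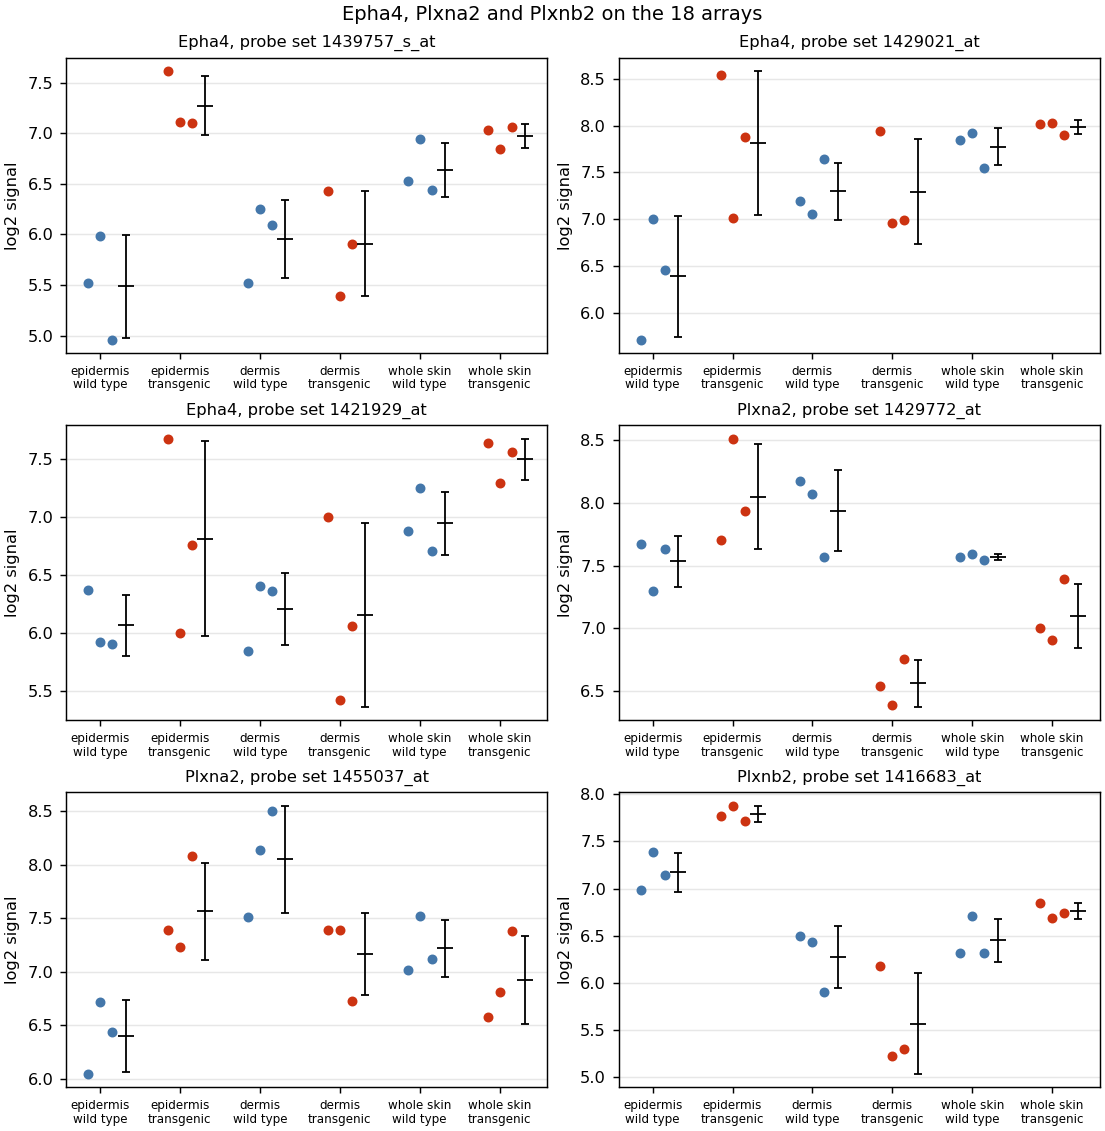
Log2 signal of 3 Epha4, 2 Plxna2 and 1 Plxnb2 probe sets on each of the 18 arrays (blue wild type, red transgenic), with group mean ± SD in black, n = 3. On both Plxna2 probe sets the transgenic epidermal arrays lie above and the transgenic dermal arrays below their wild-type counterparts, while whole skin moves less.

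The called Eph receptor probe sets were lower in dermis, but in wild type their share was near the background. Among 10 tested EphA probe sets, 1 was called lower in wild-type dermis (10%, beside 7.12% of all probe sets). In transgenic dermis 4 were called lower (40%, beside 9.6%). Epha1, the EphA receptor known from epidermis, was lower on 1432399_a_at in both, by 1.40 ± 0.38 and 1.69 ± 0.38 (adjusted p = 0.023 and 0.0069), and it was the 1 guidance gene called lower in dermis in both genotypes. The wild-type call was lost in 4 of 18 alternatives, among them without wild-type dermis 1 or 2 or epidermis 1. Epha4 was lower in transgenic dermis by 1.36 ± 0.37 on 1439757_s_at (adjusted p = 0.0202) and by 2.26 ± 0.58 on 1421928_at (adjusted p = 0.0147), the latter lost without transgenic dermis 2, epidermis 2 or epidermis 3. Ephb6, a receptor without kinase activity, was lower there by 1.56 ± 0.30 (adjusted p = 0.00269). Epha2 and Ephb4 were called in neither genotype.

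Of the ephrins, 1 of 8 A and 1 of 8 B probe sets were called in each genotype. Each share is 12.5%, beside 15.7% of all probe sets in wild-type and 18.8% in transgenic skin. Efnb2, the arterial ephrin, was higher in wild-type dermis by 1.13 ± 0.25 on 1419638_at (adjusted p = 0.00828), while its other 3 probe sets differed by −0.13 to 0.27. Efna1 was lower in transgenic dermis by 2.17 ± 0.49 on 1448510_at (adjusted p = 0.00738) and by 0.29 ± 0.39 on 1416895_at (adjusted p = 0.666). Efnb1 was lower on 1418285_at by 1.17 ± 0.36 (adjusted p = 0.0347, lost in 6 of 18 alternatives, among them without transgenic dermis 1 or 2 or epidermis 2 or 3), with −0.08 and 0.31 on its other probe sets. Efna3 was lower in wild-type dermis by 1.25 ± 0.39 on 1431170_at (adjusted p = 0.0431) and differed by 0.34 ± 0.27 on 1455344_at; the call was lost in 7 of 18 alternatives, among them without any wild-type dermis array. Among the genes with several tested probe sets and a call, all probe sets shared a sign in 11 of 16 in wild-type and 13 of 17 in transgenic skin.

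Of the 41 tested partner genes, 8 were higher and 0 lower in wild-type dermis (19.5%, beside 15.7% of all probe sets called), and 7 higher and 0 lower in transgenic dermis (17.1%, beside 18.8%). These shares are near the background. With 1 probe set per gene, as for the partners, 1725 of 13739 genes were called higher and 834 lower in wild-type dermis. In transgenic dermis that fit called 1802 higher and 1252 lower. Dpysl2, a cytoskeletal mediator of semaphorin signals, was higher by 1.62 ± 0.24 and 1.22 ± 0.24 (adjusted p = 0.000715 and 0.00319). The VEGF receptor Kdr was higher in wild-type dermis by 4.28 ± 0.74 (adjusted p = 0.00187), and the endothelial receptor Robo4 in transgenic dermis by 3.55 ± 0.63 (adjusted p = 0.00155). Kdr is also on the endothelial marker list. Pericyte and smooth muscle markers summed to 269 to 525 in wild-type epidermis and 3525 to 5299 in wild-type dermis. The part of vessels, fibroblasts and nerves in the layer differences was not tested.

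Transgenic dermis also carried inner root sheath genes. The list of inner root sheath and hair shaft genes summed to 2030 to 3785 on its arrays and 103 to 154 on those of wild-type dermis. Of its 8 tested genes 4 were called higher, the inner root sheath keratins Krt25, Krt27 and Krt73 and trichohyalin (Tchh). A further inner root sheath keratin, Krt71, rose by 5.79 ± 0.94 and missed the threshold (adjusted p = 0.05). The hair shaft keratin Krt31 differed by 0.32, Msx2 by 0.44 and Hoxc13 by 0.39, none of them called. Krt73 was also called higher in transgenic epidermis (4.39 ± 0.85, adjusted p = 0.0192) and whole skin (4.26 ± 0.44, adjusted p = 0.00296). Between transgenic layers 4 of the 8 genes were called higher in dermis, while Krt73 differed by −0.52 ± 0.85. Keratinocyte markers had lower sums there: the differentiated list summed to 6823 to 11780 against 12228 to 20126 in wild-type dermis, and the basal list to 9141 to 9892 against 11668 to 14206, with 0 genes of either called between the dermal groups. The part of hair and keratinocyte genes in the transgenic layer comparison, and so in the lower plexin and Eph receptor signals, was not tested.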

How the data were processed

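The authors deposited a table of log2 values, 1 per probe set and array, made with MAS5 per the submitters' processing notes. The sources used here do not give the MAS5 version or settings. The log2 scale was read from the values, which ran from −7.52 to 14.42 and gave linear trimmed means of 98.89 to 99.50 on all arrays. Dim probe sets vary most between arrays on this scale. RNA was amplified with the WT Ovation Pico kit, per the labels. Values were used as deposited. Probe sets with a mean above the 30th percentile (log2 3.15) were fitted in limma 3.58.1 under R 4.3.3 with an intensity trend: 4 groups over the 12 layer arrays, and 2 groups over the 6 whole skin arrays. Symbols came from the platform annotation (34945 probe sets with 1 symbol, 932 with several, 9160 unnamed). The script was tested on simulated data, where directions were right but, with tissues of unequal spread, a larger share of the 12-array fit's genotype calls was false than the threshold allows; layer comparisons were not simulated. Because the groups differ in spread, guidance genotype calls in epidermis and guidance counts between layers are given beside a fit of the compared arrays alone. Partner and marker genes are given from the main fits alone, without that check. Genes named were called ones whose groups did not overlap, up to 12 per direction, plus 20 listed genes (1 not on the table, the brightest probe set of each other gene); Plxna2 in the interaction and other probe sets of named genes were added after their values were seen. Members and lists were chosen with earlier results of these data known. Replicate numbers were not taken to pair the compared groups: same-number correlations of deviations were −0.329 to 0.029 for epidermis, −0.299 to −0.051 for dermis and −0.139 to 0.073 for whole skin between genotypes, −0.042 to 0.049 between wild-type layers and 0.003 to 0.4 between transgenic layers, where 2 of 3 were over 0.1. Transgenic epidermis and whole skin, which are not compared with each other, gave 0.166 to 0.216, against −0.164 to −0.008 for unlike numbers. Promoters came from RefSeq, build GRCm38.p6.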

Additional observations from a re-analysis of the deposited data

How the results depend on the processing

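The counts of called guidance probe sets between layers moved by over 1.5 times with 2 settings. With 1 probe set per gene they were 15 genes in wild-type and 19 in transgenic skin, in place of 29 and 38 probe sets, since fewer features were counted. With array weights wild type gave 46, while 4807 of all 31526 probe sets were called higher and 5223 lower. One fit of all 18 arrays gave 42 and 47, and fits of the compared arrays alone 34 and 31. Over all probe sets the 18-array fit called 4266 higher and 4222 lower in wild type, and 4316 and 4663 in transgenic skin. The genotype counts were less stable. The 18-array fit gave 12 in epidermis, 2 in dermis, 1 in whole skin and 1 for the interaction, in place of 4, 0, 7 and 0. Over all probe sets it called 871 higher and 940 lower in epidermis, and 18 and 38 in dermis. For whole skin it called 29 and 5, and for the interaction 19 and 26. Array weights gave 12 in epidermis, 8 in dermis and 11 for the interaction. Calls over all 31526 probe sets rose too, to 1147 higher and 1050 lower in epidermis and 360 and 1348 in dermis. For the interaction they were 739 and 1170. With 1 probe set per gene epidermis gave 2. A further 2 settings were chosen after seeing the data. Leaving out the epidermal and the dermal array of lowest weight (wild-type epidermis 1, transgenic dermis 1) gave 4, 1 and 0. Over all probe sets it gave 249 higher and 140 lower, 46 and 178, and 2 and 6. Leaving out wild-type epidermis 2 and transgenic dermis 1, picked because that adds most calls, gave 15, 1 and 7, counts raised by that choice. Over all probe sets this choice gave 1390 higher and 1208 lower, 65 and 199, and 1028 and 1346. Leaving out single arrays gave 23 to 34 and 29 to 36 between layers, 2 to 4 in epidermis, 0 to 1 in dermis, 4 to 5 in whole skin and 0 for the interaction. Epidermis fell to 2 without wild-type epidermis 3 or transgenic epidermis 1 or 2, and whole skin to 4 without wild-type whole skin 1 or any transgenic array. The cause of these shifts was not tested. With the replicate number as a block, whole skin gave 4 in place of 7, and the other counts were 25, 33, 3, 0 and 0; with a block within genotype the layers gave 29 and 38. Scaling moved the median of all probe sets in epidermis from −0.198 to 0.001 (quantile) or −0.084 (75th percentile), and the share of higher calls among all of them from 57.5% to 66.3% or 70.2%, while the guidance counts stayed 1 higher and 3 lower. No named result changed direction while called. Sema3d 1453148_at and Sema3c 1429348_at kept their epidermal calls in all 17 and 18 alternatives, and dim probe sets such as Slit1 have the least certain sizes.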
